A study of Mus musculus with 30 samples.

Results

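L1 is the most numerous family of LINE (long interspersed) retrotransposons in the mouse genome, and the intervals described here are the stretches annotated as L1 in a table of reads counted over repeats in sorted mouse retinal ganglion cells. Rows were taken when the annotation was exactly L1, and the 10 rows with the highest total over the 30 libraries were left out. This left 17685 of 17695 L1 rows, in a repeat table of 205758 rows. The members were thus chosen by annotation and by total count, so the levels of the most abundant members are a description. Each count was divided by the gene table's total of its library and is given per 1000000 gene counts (CPM).

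Vglut2-Cre mice with the LSL-Cas9-GFP allele gave the cells, and Cas9 and GFP appear in them only where this Cre has acted. The eyes had received AAV2 with guide RNAs against Ssrp1 (SSRP1KO) or with non-targeting guide RNAs (NT), and 2 weeks later the optic nerve was crushed. The 5 SSRP1KO groups and the 5 NT groups were uncrushed (no crush) or taken at 1, 2, 3 or 4 days post crush (dpc), with 3 libraries in each of the 10 groups. All groups, controls included, carried the Cas9 and Cre alleles and an injected AAV2, and ages were not given in the sources used here. Live cells were sorted on CD90.2 and/or GFP and/or mCherry, the last of these co-expressed with the guides, so a sorted cell need not have carried both Cas9 and a guide. The labels do not say that replicates came from separate animals, and p-values therefore measure the spread between these libraries. In bulk RNA of this kind, fewer cells of a type and less RNA per cell cannot be told apart.

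A full-length L1 carries a promoter, an RNA-binding protein and an endonuclease with reverse transcriptase, and moves by copying its own RNA back into DNA. Most copies in the mouse genome are truncated at the 5' end and cannot move, and many lie inside introns or exons of genes, where they are copied along with the host transcript. In neurons the family is held down by DNA methylation and by histone methylation, and its RNA can be bound by antiviral proteins. SSRP1, with SUPT16, makes up FACT, the histone chaperone that opens and rebuilds nucleosomes in front of polymerases. A count over a short L1 annotation can thus come from an L1 promoter, from the transcript around it or from a similar sequence elsewhere, and these tables do not separate the sources.

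The sequences of exon members are shown because they hold most of the abundant members and can be set beside the transcripts of genes. Of 767 exon members, 676 with lengths up to 30 bases were read from GENCODE M21 transcripts (GRCm38). Length need not be the only reason that the rest were not read, and the reasons were not counted. Each was read from the base after the listed start to the listed end, since it is not stated whether starts count from 0. The 676 comprised 403 in noncoding exons, 269 in untranslated regions and 4 in coding sequence. The first 6 sequences below belong to members with the highest levels, and the next 2 to L1 rows that match the transcript of a gene with another name. The last 3 are from members that were lower after crush, and they are shown because they hold AATAAA. The other named members of this kind that could be read, in Ttc28, Creg2, 1700040D17Rik, Gbp7, Kcnq1ot1 and Gm37899, do not hold it. Members that were called but not named are not covered by this list. All are written 5' to 3' on the strand of the gene, and capitals mark AATAAA, the hexamer that commonly precedes a poly(A) site.
Map1b coding exon, chr13:99433946-99433971, minus strand: gaagccatctgcgttaaaaccaaaa
Map1b coding exon, chr13:99433890-99433915, minus strand: agcctcttgctgctgggaaactcaa
Rps24-ps3, chrX:79195316-79195344, plus strand: ctcgcaagacatggcctttatgagaaga
Gm4332, chr3:119709595-119709620, plus strand: cgctggagaaggtttgtgcggactt
Gm4332, chr3:119709762-119709787, plus strand: cgactcattgatttacatagtcctt
Gm26825, chr5:5781545-5781570, plus strand: gttttattattccatgttacttgtt
Gm6472, chrX:152909522-152909547, minus strand: tttcagttgtaaagaaaatgactga
Gm4739, chr10:26107911-26107936, plus strand: tccaagaaatgctccgagagatgga
Gng4 untranslated region, chr13:13827849-13827874, plus strand: tatgtgtgttatacttcAATAAAac
Tceal5 untranslated region, chrX:136200958-136200983, minus strand: tgtaaaatAATAAAgataacagttt
Armh4 untranslated region, chr14:49679355-49679380, minus strand: gtcctaaaaAATAAAggactcctgt
Both Gm4332 sequences also occur letter for letter in Rps20, a ribosomal protein gene, and that of Gm6472 occurs in Rps7. The Gm4739 sequence occurs in Hmgb2, which encodes a high mobility group protein. In all, 109 of the 676 exon sequences had an exact match in a transcript of another gene. AATAAA was present on the gene's strand in 143 of the 676 (21.2%), against 9924 of 37528 other exon rows of the repeat table (26.4%). Its reverse complement TTTATT was present in 33 of the 676 (4.88%), against 1489 (3.97%).

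Library totals of the gene table ranged from 9715972 to 34420978 counts. Ssrp1 averaged 53.5, 29.2, 41.3, 38.5 and 44.2 CPM (TMM-scaled) in SSRP1KO cells at no crush and 1 to 4dpc, against 64.8, 72.9, 68.2, 90.1 and 79.6 CPM in NT cells. Over the mean of the 5 times it was lower by -0.88 ± 0.10 on the log2 scale (SE; adjusted p = 1.5e-06, edgeR), while the difference without crush (-0.28 ± 0.22, adjusted p = 0.51) did not pass. Supt16 differed by -0.17 ± 0.06 (adjusted p = 0.053). The pooled ganglion cell markers were present in every library, at 3519 to 8302 CPM summed, and rod and cone markers (8 genes) at 129.6 to 3580.3 CPM. The highest rod and cone sum was in an SSRP1KO 3dpc library, a group in which ganglion cell markers summed to 3765 to 4458 CPM. SSRP1KO no crush replicate 3, SSRP1KO 2dpc replicate 5 and NT 2dpc replicate 3 stood apart, with the lowest mean correlations of log2 gene levels with the libraries of their own groups (0.911, 0.941 and 0.942, in the order SSRP1KO 2dpc, SSRP1KO no crush, NT 2dpc). The next lowest were SSRP1KO 2dpc replicate 4 (0.946) and replicate 3 (0.949), so the cut at 3 libraries was a choice. The sexes of the mice were not balanced: all 3 SSRP1KO no crush and 4dpc libraries had Xist and almost no Y-linked counts, and the 3 libraries each of SSRP1KO 1dpc and 2dpc had the reverse. All 3 NT no crush libraries had Y-linked counts, all 3 NT 1dpc libraries had Xist with 0.0457 to 46.3 CPM of Y-linked genes, and SSRP1KO 3dpc and NT 2, 3 and 4dpc were mixed. All 5 sex-linked genes listed were lower in SSRP1KO cells on the mean of 5 times.

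Counts were spread very unevenly over the members. No library had a count for 6181 of the 17685 (35.0%), another 5194 had a total of 1 to 9, and 379 were counted in all 30 libraries. The members' sum was 1288875 counts, of which the 10 most abundant held 27.6% and the top 100 held 55.4%. By length 17418 (98.5%) were listed as 25 long, and the range was 1 to 87. The 767 members that overlapped an annotated exon were 4.34% of members and held 48.8% of counts, the 7616 in introns held 26.3%, and the 9302 outside genes held 24.9%. Among exon members, 39 lay in pseudogenes and held 32.1% of the exon counts.

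The limit on the total fell within a continuous range. Just outside it lay chr3:5751224-5751259 in an exon of Gm8797 with 60767 counts and chr3:58102589-58102615, 381 bases from Gm5537, with 58808. Just inside lay the pair in Map1b, with 54717 and 54686. The limit split a cluster in Map1b exons. The rows left out include chr13:99434279-99434340, chr13:99434141-99434226 and chr13:99433993-99434092 in Map1b, with 174365, 138660 and 111135 counts. The 10 rows left out held 80.8% of all L1 counts, and the largest of these, chr13:9834403-9834449 with 2837429 counts, lies 20 bases from the annotated gene Gm24187.

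The summed level of the members was 1775 CPM at the median and differed 2.51-fold between the lowest and the highest library. In SSRP1KO cells it was 2309, 1988 and 2306 CPM without crush, 1423, 1448 and 1629 at 1dpc, 1620, 1799 and 3445 at 2dpc, 1691, 2446 and 1652 at 3dpc, and 1986, 2035 and 1768 at 4dpc. In NT cells it was 1581, 1600 and 1473 CPM without crush, 1508, 1492 and 1371 at 1dpc, 1926, 1863 and 2168 at 2dpc, 1734, 1654 and 1854 at 3dpc, and 2066, 1782 and 1932 at 4dpc. Without crush the SSRP1KO libraries all lay above the NT libraries, while at 1, 2, 3 and 4dpc the groups overlapped. NT libraries at 2, 3 and 4dpc all lay above the uncrushed NT libraries, whereas SSRP1KO libraries at 1dpc all lay below the uncrushed SSRP1KO libraries. The uncrushed difference was not particular to L1. B2 repeats had 8195 to 12489 CPM in uncrushed SSRP1KO against 3987 to 4644 in uncrushed NT libraries. Alu (6002 to 7246 against 3856 to 4387), ERVK and ERVL-MaLR repeats did not overlap either, while B4 repeats did. B2, Alu, ERVK and ERVL-MaLR also fell without overlap at SSRP1KO 1dpc (B2 to 3552 to 4666 CPM).

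These levels are given as log2 ratios of group means with the pooled SD of the libraries and no test. SSRP1KO over NT was 0.50 ± 0.10 without crush and 0.16 ± 0.23 on the mean of 5 times, where it was 0.09 without SSRP1KO 2dpc replicate 5. NT 4dpc over NT no crush was 0.31 ± 0.09, and SSRP1KO 4dpc over SSRP1KO no crush was -0.19 ± 0.12. With the 10 most abundant rows kept, the uncrushed ratio of SSRP1KO over NT turned to -0.37 with overlapping groups, the ratio on the mean of 5 times was 0.01, and both crush ratios turned, to -0.20 for NT 4dpc and 0.34 for SSRP1KO 4dpc. With TMM scaling the uncrushed ratio was 0.26. These ratios therefore describe the 17685 members as chosen and not all L1 rows.

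Exon members varied least in levels scaled by gene totals, in which reads over exons can also be counted. The part of the scaling in this was not tested. Their summed level ran from 706 to 1063 CPM over the 30 libraries, a 1.5-fold range, while intron members ran from 244 to 1651 CPM (6.78-fold) and members outside genes from 326 to 797 CPM (2.45-fold). Intron members averaged 748 ± 204 CPM in SSRP1KO no crush cells, against 381 ± 35.1 in NT no crush cells (SD, n = 3 each), and 300 ± 82.1 CPM in SSRP1KO 1dpc cells. Exon members were at 950 ± 35.5 CPM in SSRP1KO no crush cells, against 803 ± 15.7 in NT no crush cells. The highest intron and outside-gene levels belonged to 1 library, SSRP1KO 2dpc replicate 5, in which B2, Alu and ERVK repeats were also at their highest (23576, 12579 and 2419 CPM). Malat1, a nuclear RNA, ranged from 5227 to 54231 CPM over the libraries and was at 30550 CPM in that one; the part of nuclear RNA in these levels was not tested.

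**Figure D1:**
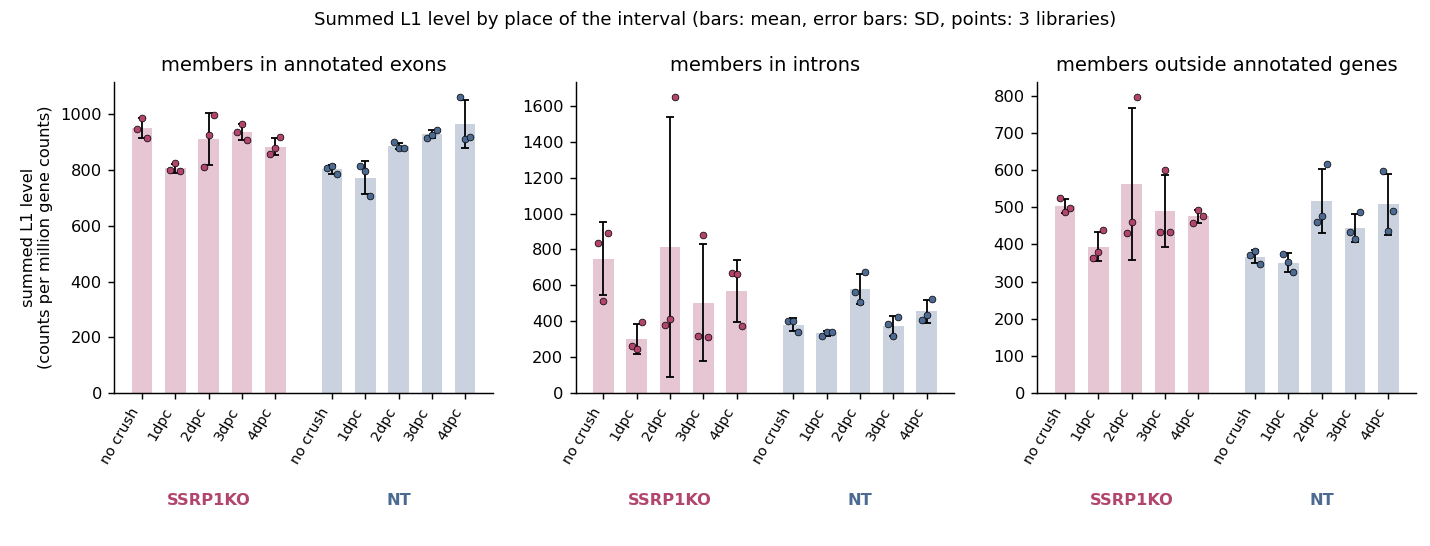
Summed level of L1 members (CPM, linear axis) in exons, in introns and outside genes, with 1 point per library, a bar at each group mean and error bars of 1 SD. Exon levels stay between 706 and 1063 CPM, while intron levels reach 1651 CPM in SSRP1KO 2dpc replicate 5.

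The 10 members with the highest mean level were mostly pieces of protein-coding or ribosomal protein sequence. Of these, 9 overlapped exons: 2 in Map1b, which encodes a microtubule-associated protein of axons, 2 in the Rps20 look-alike Gm4332, and 1 each in Rps24-ps3, Gm26825, Gm8797, Gm6472 (with Rpl7a-ps12) and Mrs2/Gpld1. The tenth, chr2:40557390-40557415, lay 275 bases from Gm13456. The Gm8797 sequence at chr3:5750869-5750894 is also in Ubb, a ubiquitin gene. Levels of the look-alikes and of their parent genes cannot be told apart where the letters are the same.

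Map1b held the 2 highest members, close to other Map1b rows that were left out for their higher totals. At chr13:99433946-99433971 the SSRP1KO libraries had 74.9, 64.8 and 80.3 CPM without crush, 65.9, 69.5 and 63.3 at 1dpc, 83.0, 68.2 and 21.6 at 2dpc, 62.1, 73.7 and 74.0 at 3dpc, and 42.7, 52.2 and 50.5 at 4dpc. The NT libraries had 94.0, 93.7 and 99.2 CPM without crush, 86.1, 82.8 and 60.5 at 1dpc, 95.9, 83.8 and 61.1 at 2dpc, 104, 102 and 78.6 at 3dpc, and 104, 93.8 and 93.3 at 4dpc. The groups did not overlap at no crush, 3dpc or 4dpc, and SSRP1KO 2dpc replicate 5 was the lowest of all 30. On the mean of 5 times this interval was lower in SSRP1KO cells by -0.50 ± 0.13 (log2, SE; adjusted p = 0.0085), its neighbour by -0.44 ± 0.13 (adjusted p = 0.03) and the Map1b gene by -0.41 ± 0.08 (adjusted p = 0.0005, gene fit). All adjusted p here and below are from edgeR's quasi-likelihood test with Benjamini-Hochberg adjustment, over 54536 intervals or 16621 genes. Interval fits use gene-table totals and gene fits TMM factors, which shifts log2 values of SSRP1KO over NT by -0.12 on the mean of 5 times and by -0.24 without crush.

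The Rps24-ps3 and Gm4332 intervals were higher in SSRP1KO than in NT cells on the mean of 5 times. Rps24-ps3 had 91.8, 84.8 and 106 CPM in SSRP1KO 4dpc libraries, against 83.6, 95.9 and 55.0 in SSRP1KO no crush libraries. It had 91.7, 71.1 and 77.6 CPM in NT 4dpc libraries, against 53.1, 41.9 and 40.2 in NT no crush libraries. The NT groups did not overlap, and the SSRP1KO groups did. It was higher at NT 4dpc than at NT no crush by 0.83 ± 0.22 (adjusted p = 0.014) and higher in SSRP1KO than in NT cells by 0.44 ± 0.10 on the mean of 5 times (adjusted p = 0.0026). The Rps24 gene passed in both comparisons as well, at 0.90 ± 0.19 and 0.28 ± 0.09. Unlike the Gm4332 sequences, that of the Rps24-ps3 interval had no exact 25-base match in a transcript of another gene, Rps24 included. The second Gm4332 interval was higher by 0.98 ± 0.28 at NT 4dpc (adjusted p = 0.026), by 1.10 ± 0.28 in SSRP1KO over NT cells without crush (adjusted p = 0.048) and by 0.64 ± 0.12 on the mean of 5 times (adjusted p = 0.00081). Rps20 itself gave 0.86 ± 0.22, 0.78 ± 0.22 and 0.53 ± 0.10, each passing. The first Gm4332 interval was at 0.85 ± 0.29 at NT 4dpc (adjusted p = 0.068) and was higher by 0.64 ± 0.13 on the mean of 5 times (adjusted p = 0.0011). The Gm6472 interval was higher by 1.02 ± 0.26 at NT 4dpc (adjusted p = 0.011) and was at 0.14 ± 0.11 on the mean of 5 times (adjusted p = 0.51).

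The interval near Gm13456 was higher after crush in NT cells. In SSRP1KO cells it had 56.3, 94.2 and 50.9 CPM without crush, 49.1, 48.5 and 45.4 at 1dpc, 58.8, 82.2 and 101 at 2dpc, 90.3, 69.5 and 80.2 at 3dpc, and 77.3, 76.4 and 83.3 CPM at 4dpc. In NT cells it had 27.9, 29.3 and 30.1 CPM without crush, 40.4, 32.7 and 35.4 at 1dpc, 52.6, 68.9 and 125 at 2dpc, 76.7, 71.1 and 93.2 at 3dpc, and 123, 67.6 and 76.1 CPM at 4dpc. All 3 uncrushed SSRP1KO libraries lay above the uncrushed NT libraries. The difference was 1.61 ± 0.28 for NT 4dpc over no crush (adjusted p = 0.00016) and 1.21 ± 0.28 for SSRP1KO over NT without crush (adjusted p = 0.028). Gm26825, Gm8797 and the Mrs2/Gpld1 interval passed in none of the 15 comparisons.

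**Figure D2:**
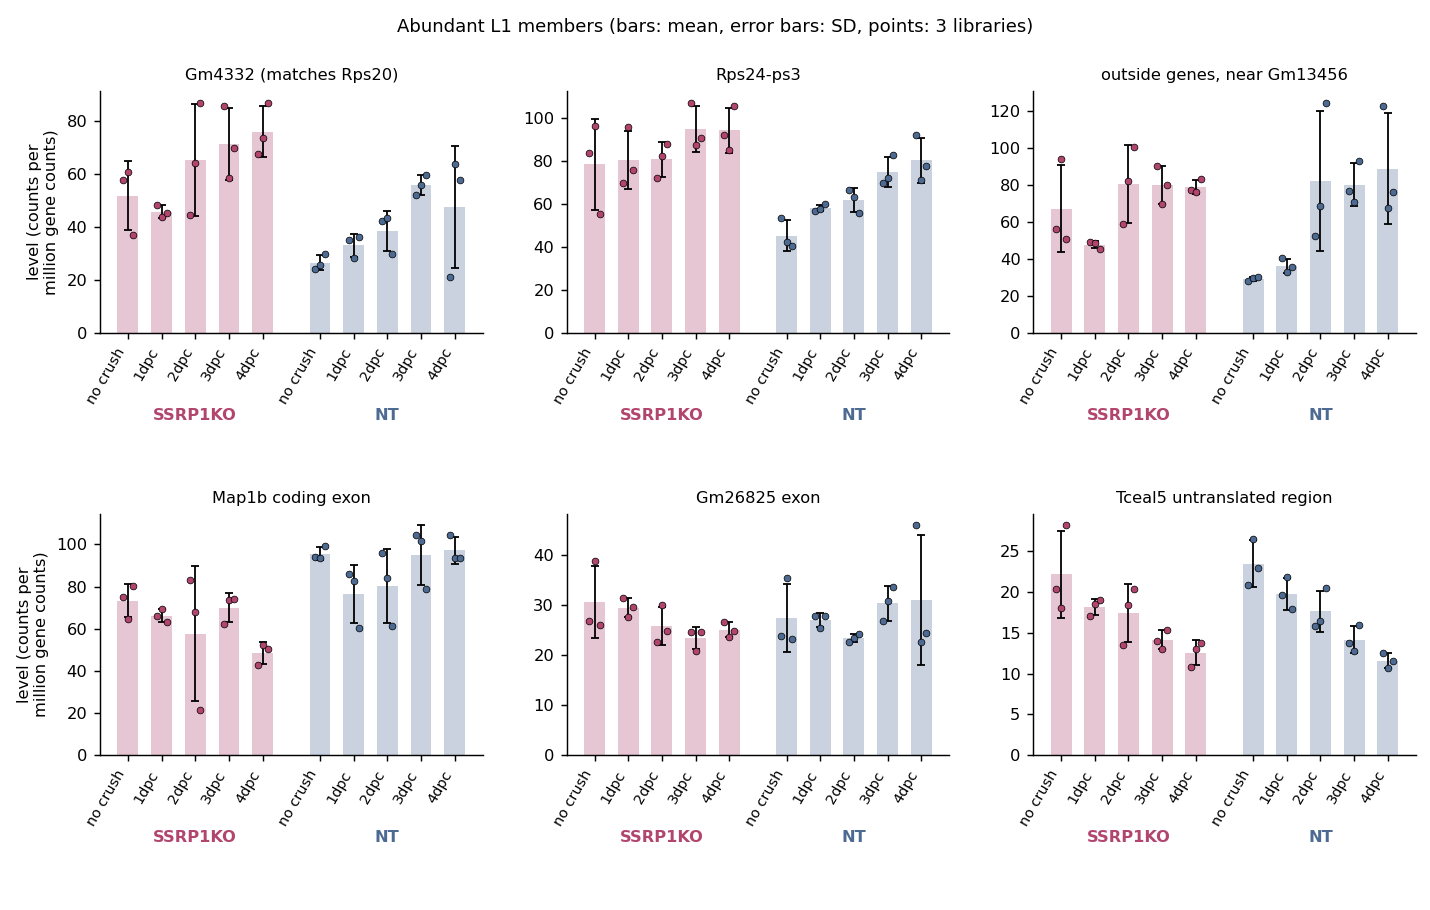
Level of 6 members (CPM) by group, with 1 point per library, a bar at each group mean and error bars of 1 SD. Map1b at chr13:99433946-99433971 is lower in SSRP1KO than in NT libraries without crush, while the Gm4332, Rps24-ps3 and near-Gm13456 intervals are higher.

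Low counts limited which members could be compared. The filter on low counts kept 1482 members (8.38%), with 85% of the members' counts: 810 in introns, 377 outside genes and 295 in exons. All 1482 went through the same fit as the rest of the repeat table, and a member that passed the filter through 1 high group had a better chance of being called.

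Crush in NT cells moved more L1 intervals at later days. No tested member passed at 1dpc (of all intervals 0.174% did, 0.171% higher and 0.00367% lower). Under an unadjusted p of 0.05 were 78 members (5.26%), against 5.93% of all intervals, DESeq2 called 1 and 2 passed without NT no crush replicate 3. At 2dpc 15 members rose and 2 fell (1.15%), against 3.28% of all intervals, 2.55% up and 0.735% down. At 3dpc 16 rose and 11 fell (1.82%), against 5.02% of all intervals, 2.83% up and 2.19% down. At 4dpc 34 rose and 11 fell (3.04%), against 7.1% of all intervals, 4.23% up and 2.87% down. The members' share was below that of all intervals at each of these days. The median log2 change of the tested members at 4dpc was 0.32, against 0.24 over all intervals. The comparisons share the 3 NT no crush libraries, and leaving out replicate 1, 2 or 3 of these gave 10, 6 and 8 calls at 2dpc and 14, 13 and 14 at 3dpc. At 2dpc 7 were called without NT 2dpc replicate 3, and at 3dpc 16 without NT 3dpc replicate 2 and 14 without replicate 3.

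The risers at NT 4dpc included intervals outside genes that had few or no counts without crush. An interval at chr18:76168481-76168506, 2046 bases from Mir6358, had 2.76, 2.13 and 0.442 CPM at NT 4dpc, against 0 in all 3 NT no crush libraries. This is 102 against 0 counts, at least 42.5-fold higher when the NT no crush group is set at 3 counts in total, the limit that a count of 0 allows (adjusted p = 0.00027). At SSRP1KO 4dpc it had 2.15, 1.52 and 1.47 CPM, against 0.140, 0 and 0 in SSRP1KO no crush libraries. These are 137 and 3 counts, a ratio of 29.7 with a counting interval of 9.96 to 146 (adjusted p = 0.016). The interval was higher in every 4dpc library of both guide groups than in any uncrushed library of the same guide group. The rule by which members were named requires this, so it adds no support.

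A second such interval, chr3:35255006-35255031, lies 1431 bases from 1700017M07Rik. It had 1.01, 1.24 and 0.841 CPM at NT 4dpc and no count in NT no crush libraries, at least 27.5-fold higher (adjusted p = 0.0038). In SSRP1KO 4dpc libraries it had 0.208, 0.694 and 0.367 CPM, against 0.0467, 0 and 0 without crush, which was not called.

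The interval chr10:118944571-118944596, nearest to Gm38403 at 17429 bases, passed in 5 of the 8 comparisons of a day with no crush. It had 0.276, 1.62 and 0.885 CPM at NT 4dpc and 0.948, 1.62 and 1.44 at NT 2dpc, against 0 in all NT no crush libraries (at least 29.2-fold and 34.3-fold). It also passed at NT 3dpc and, in SSRP1KO cells, at 2dpc and 4dpc (4.23 ± 1.07 at 4dpc, adjusted p = 0.027). SSRP1KO 2dpc replicate 5 was its highest library at 6.92 CPM.

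Near Gm2140, chr15:43740496-43740535 and chr15:43743824-43743849 rose together at NT 4dpc. The first had 35 counts against 0, and the second 70 against 2, a ratio of 43.7 with a counting interval of 11.7 to 368. Also called were chr19:41897605-41897630, 1433 bases from Rrp12, with 45 against 0 counts, and chr1:66828772-66828797, 2042 bases from Acadl, with 75 against 3. Distances to genes in the annotation are a description, and no sequence of these intervals was read.

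Of 8 exon members that fell at NT 4dpc, 6 lay in 5 genes that were tested, and all 5 genes fell as well. Of all genes 13.4% fell. Reads over an exon member can also count for its gene, so the 2 changes are not independent. The interval in the untranslated region of Ttc28, which encodes a tetratricopeptide repeat protein, had 1.01, 2.62 and 1.19 CPM at 4dpc, against 7.06, 6.05 and 4.84 without crush (-1.84 ± 0.41, adjusted p = 0.0029). The Ttc28 gene gave -1.38 ± 0.19. The 2 intervals in Creg2, which encodes a secreted glycoprotein of the brain, fell by 1.43 and 1.39 on the log2 scale and the gene by 1.86. Gng4, a G protein gamma subunit, had 3.03, 2.68 and 3.76 CPM at NT 4dpc, against 7.20, 6.78 and 7.76 without crush (-1.20 ± 0.29, adjusted p = 0.0072), with the gene at -1.44 ± 0.23. The Tceal5 interval fell by 1.02 on the log2 scale (adjusted p = 0.0024) and its gene by 1.27.

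At NT 4dpc 13.6% of all genes rose and 13.4% fell, and an exon member can share reads with its host gene. Over all called exon members of NT 4dpc with a tested host gene, 10 of 15 had a host that passed in the same direction, and no host passed in the other. The risers of this kind lay in Pck2 (1.92, gene 1.64), an enzyme of gluconeogenesis in mitochondria, Cln8 (2.65, gene 2.22), a protein of the endoplasmic reticulum, Tma16 (2.70, gene 1.32) and Mir22hg (2.58, gene 1.49), the host of a microRNA. The other way round, 4 intervals in 9930111J21Rik2 rose by 3.63 to 4.88 while the gene was at 0.24 ± 1.04 (adjusted p = 0.90). Of these intervals, chr11:49018077-49018102 also overlaps the gene Olfr56, which was not set beside it. Of 6 called intron members with a tested host, 4 had a host that passed in the same direction and 1 in the other: Dscam, an adhesion protein gene, was at -0.79 ± 0.15 while its intron member rose by 4.43. The count at NT 4dpc was 23 instead of 45 without NT no crush replicate 3, 28 without NT no crush replicate 2 and 29 without NT 4dpc replicate 1. It was 84 without the 3 libraries that stood apart.

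Crush in SSRP1KO cells gave fewer calls than in NT cells at 2, 3 and 4dpc and more at 1dpc (4 against 0), and the difference in counts was not tested. At 1dpc no member rose and 4 fell (0.27%), against 0.462% of all intervals, 0.196% up and 0.266% down. At 2dpc 9 rose and 3 fell (0.81%), against 1.68% of all intervals, 0.944% up and 0.733% down. At 3dpc 4 rose and 6 fell (0.675%), against 1.93% of all intervals, 0.974% up and 0.952% down. At 4dpc 3 rose and 5 fell (0.54%), against 2.01% of all intervals, 0.832% up and 1.18% down. The medians of the tested members were -0.97 at 1dpc (all intervals -0.51) and -0.32 at 4dpc (all intervals -0.16). At 1dpc the median of the intron members was -1.50. The uncrushed SSRP1KO libraries were all Xist-positive and those at 1dpc and 2dpc all Y-positive, and with a sex score as a covariate no member passed at 1dpc or 2dpc and 4 passed at 3dpc. At 1dpc and 2dpc crush and sex go together in these libraries and cannot be told apart, so the loss of calls decides nothing about either. Of the 9 that rose at 2dpc, 8 had their highest level of all libraries in SSRP1KO 2dpc replicate 5, and 1 lay on the Y chromosome (chrY:1047310-1047335). Among all 1482 tested members, 392 had their highest level in that library. The comparisons share the SSRP1KO no crush libraries, and leaving out replicate 1, 2 or 3 of these gave 4, 2 and 3 calls at 2dpc. At 2dpc 6 were called without SSRP1KO 2dpc replicate 5, and at 3dpc 6 without SSRP1KO no crush replicate 3, 3 without SSRP1KO 3dpc replicate 1 and 1 without SSRP1KO 3dpc replicate 3.

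The 4 that fell at SSRP1KO 1dpc included introns of Kctd8 and Fam155a and an exon of Kcnq1ot1, the long antisense RNA of the Kcnq1 imprinted domain. The Kcnq1ot1 interval chr7:143237914-143237939 had 0.236, 0.119 and 0.219 CPM at 1dpc, against 1.5, 1.03 and 3.59 without crush (-3.37 ± 0.73, adjusted p = 0.025). The Kcnq1ot1 gene was at -1.62 ± 0.36 (adjusted p = 0.0076), and since the counting is not stated to use strand, its reads and those of Kcnq1 cannot be told apart. The Fam155a interval had 0.0674, 0.239 and 0.365 CPM at 1dpc, against 3.55, 1.37 and 2.82 without crush, while the gene was at 0.39 ± 0.17 (adjusted p = 0.22). With TMM scaling, which moves this comparison by 0.20, the split was 1 higher and 3 lower. Each of the 3 fits that left out a 1dpc library gave no call, and the count was 2 without SSRP1KO no crush replicate 3 and 8 without replicate 1.

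At SSRP1KO 4dpc the 3 risers were the intervals near Mir6358 and Gm38403 and chr12:3570436-3570486, 1895 bases from Dtnb. That interval had 1.94, 2.90 and 3.19 CPM at 4dpc, against 1.03, 0.412 and 0.128 without crush (2.28 ± 0.54, adjusted p = 0.014), and it passed at 2dpc and 3dpc too. In NT cells it had 0.827, 1.20 and 0.841 CPM at 4dpc, against 1.51, 1.15 and 0.552 without crush, which was not called. Of those that fell, Tceal5, a gene of the transcription elongation factor A-like family, had 10.8, 13.0 and 13.7 CPM at 4dpc, against 20.3, 18 and 28.1 without crush (-0.82 ± 0.22, adjusted p = 0.039). Its gene was at -0.57 ± 0.15 (adjusted p = 0.0098). Creg2 and Syne1, a nuclear envelope protein gene, fell by 1.71 and 1.39 with their genes at -1.20 and -0.61. The other 2 were introns on chromosome 18 within annotated genes Gm37013, Gm37388 and Gm42416. With gene totals free of Rn45s, the ribosomal RNA precursor gene, the split was 5 higher and 3 lower, and the count was 2 without SSRP1KO no crush replicate 3 and 16 without replicate 1. Leaving out SSRP1KO 4dpc replicate 1, 2 or 3 gave 2, 2 and 3 calls.

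**Figure D3:**
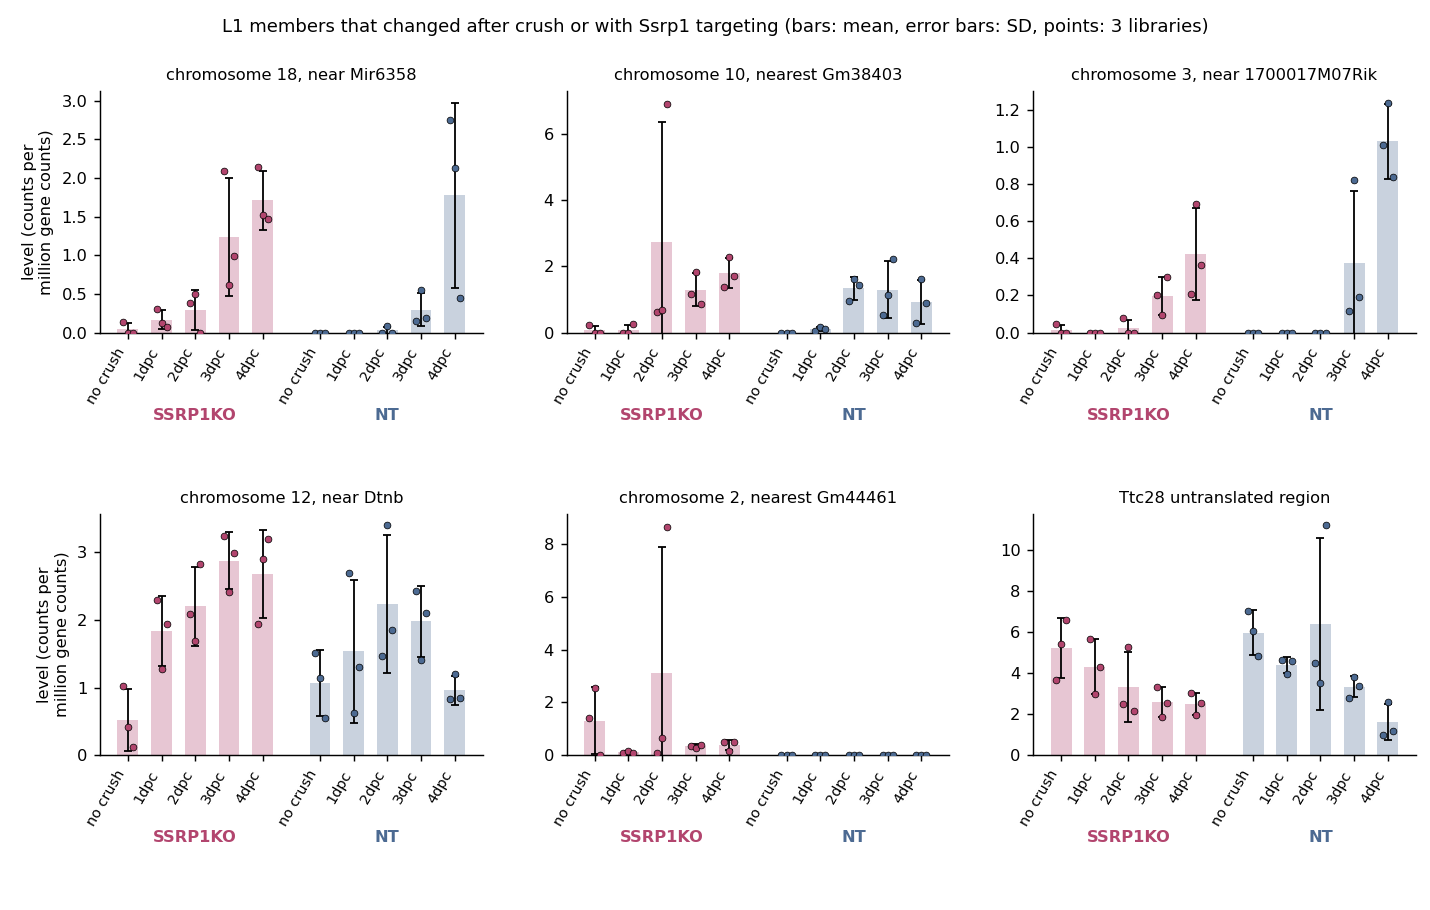
Level of 6 members that were called (CPM) by group, with 1 point per library, a bar at each group mean and error bars of 1 SD. The interval nearest to Gm44461 has counts in 14 of 15 SSRP1KO libraries and in no NT library, and the Ttc28 interval is lower at 4dpc than without crush in NT libraries.

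The difference between the crush responses of SSRP1KO and NT cells was tested for every interval. No member passed (0.0422% of all intervals did): the smallest adjusted p was 0.31, 124 members (8.37%) were under an unadjusted p of 0.05, against 8.03% of all intervals, and DESeq2 called 1. Leaving out replicate 3 of SSRP1KO 2dpc, of NT 2dpc or of the uncrushed NT cells gave 1 call each. A member called in 1 guide group and not in the other is therefore not shown to differ between them.

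Between SSRP1KO and NT cells, differences at single times were few and were mostly without crush. Without crush 8 members were higher and 2 lower in SSRP1KO cells (0.675%), against 0.904% of all intervals, 0.851% higher and 0.0532% lower. At 1dpc none passed (0.0% of all intervals, none by DESeq2), at 2dpc none (0.224%, 14 by DESeq2) and at 3dpc none (0.00183%, none by DESeq2). Under an unadjusted p of 0.05 were 78 members at 1dpc (5.26%, against 4.13% of all intervals), 190 at 2dpc (12.8% against 15.4%) and 93 at 3dpc (6.28% against 7.11%). At 4dpc 1 was lower, where 0.458% of all intervals passed, 0.233% higher and 0.226% lower. The median of tested members without crush was 0.81, against 0.42 over all intervals, and that of intron members was 1.15. At 2dpc 16 were called without SSRP1KO 2dpc replicate 3 and 5 without replicate 4.

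The 8 that were higher without crush included the Gm4739 interval with the letters of Hmgb2. It had 3.83, 2.13 and 1.79 CPM in SSRP1KO no crush libraries, against 0.518, 0.230 and 0.876 in NT no crush libraries (2.24 ± 0.54, adjusted p = 0.034). The Hmgb2 gene was at 1.43 ± 0.48 (adjusted p = 0.084). An interval 28 bases from Rps24-ps3, chrX:79195475-79195500, had 11.2, 14.1 and 10.7 CPM in SSRP1KO no crush libraries, against 5.74, 4.48 and 4.15 in NT no crush libraries (1.32 ± 0.30, adjusted p = 0.025). The 2 that were lower were an exon of Gm26782 (-2.94 ± 0.73) and chr16:37107764-37107789, 7153 bases from Stxbp5l (-1.09 ± 0.28). At 4dpc the member that passed was in the untranslated region of Rgs7bp, which encodes an anchor for a regulator of G protein signalling. It had 12.5, 13.8 and 13.2 CPM in SSRP1KO 4dpc libraries, against 58.0, 21.3 and 21.0 in NT 4dpc libraries (-1.34 ± 0.32, adjusted p = 0.042), and it did not pass without NT 4dpc replicate 1 or without any 1 of the SSRP1KO 4dpc libraries, while 2 members passed without NT 4dpc replicate 2. The Rgs7bp gene was at -0.73 ± 0.18 (adjusted p = 0.014).

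The libraries of the uncrushed comparison also differed in sex and in markers of other cells. The uncrushed SSRP1KO libraries were all Xist-positive and the uncrushed NT libraries all Y-positive, and with a sex score as a covariate no member passed. Guide group and sex go together in these libraries and cannot be told apart, so the loss of calls decides nothing about either. With TMM scaling the split was 1 higher and 2 lower in place of 8 and 2, and in each fit that left out an uncrushed NT library no member passed (2 without SSRP1KO no crush replicate 1, and 1 without replicate 2). Markers of other cells moved with it: microglia and macrophage markers summed to 75.8 to 238 CPM in SSRP1KO no crush libraries, against 29.8 to 55.8 in NT no crush libraries, with 3 of 8 passing as higher (C1qa, C1qb and Mrc1; 1.43% of all genes were higher and 2.45% lower). Mueller glia and astrocyte markers summed to 248 to 895 CPM, against 170 to 238, with 1 of 7 higher. Of amacrine markers 2 of 6 were higher, and no rod and cone, bipolar, vascular or pigment epithelium marker passed. Ganglion cell markers summed to 5151 to 6011 CPM, against 7629 to 8302, with 4 of 10 lower. Their part in the result was not tested.

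On the mean of the 5 times, 50 members were higher and 16 lower in SSRP1KO than in NT cells (4.45%, against 8.92% of all intervals). The higher share was 3.37% of the members, against 7.08% of all intervals, and the lower share 1.08% against 1.84%. The median difference was 0.21 over the tested members and 0.12 over all intervals, and it was 0.07 in exons, 0.39 in introns and 0.04 outside genes. Of the 50, 26 were in introns, 14 outside genes and 10 in exons. With TMM scaling the split was 38 higher and 27 lower. SSRP1KO 2dpc replicate 5 was the highest library for 26 of the 50, and for 392 of all 1482 tested members. Without that library 34 were higher and 13 lower, 42 of them among the 66.

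**Figure D4:**
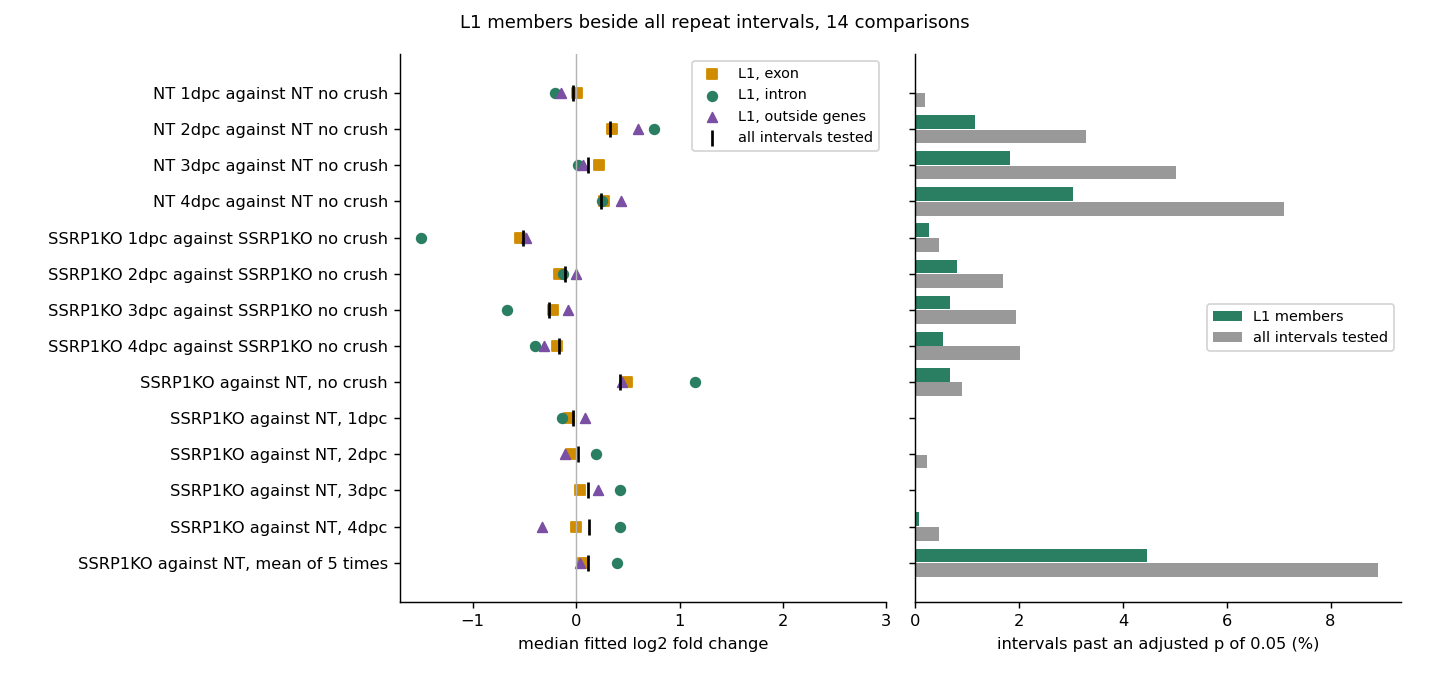
Left, median log2 fold change of tested L1 members in exons, in introns and outside genes and of all tested intervals in 14 comparisons. Right, percent of tested L1 members and of all tested intervals with an adjusted p under 0.05. The L1 share is below that of all intervals in the 10 comparisons with a called member, and the intron median is lowest for SSRP1KO 1dpc over no crush.

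Among members that met the naming rule, the largest difference on the mean of 5 times was at chr2:94524415-94524489, 13498 bases from Gm44461. SSRP1KO libraries had 1.40, 2.54 and 0 CPM without crush, 0.101, 0.159 and 0.0729 at 1dpc, 0.0760, 0.639 and 8.63 at 2dpc, 0.370, 0.283 and 0.399 at 3dpc, and 0.485, 0.173 and 0.513 at 4dpc. All 15 NT libraries had 0. These are 292 against 0 counts, at least 91.4-fold higher when the NT side is set at 3 counts in total (adjusted p = 2.11e-05). Without SSRP1KO 2dpc replicate 5, its highest library, they are 161 against 0 counts, at least 52.6-fold higher. These floors cover counting error and not the spread from 0 to 8.63 CPM between SSRP1KO libraries. With no count in NT libraries, the interval passed the filter on low counts through SSRP1KO libraries only. The call held under every alternative run, but these fits reuse the same counts and add no independent support.

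The next largest of these, an intron member of Kbtbd12 with 236 against 49 counts, was higher by 2.85 ± 0.72 (adjusted p = 0.0102), and the gene was higher by 1.95 ± 0.53. The interval chr9:108822564-108822589, 1349 bases from Gm35025, was higher by 2.36 ± 0.53, with 14 CPM in SSRP1KO 2dpc replicate 5 and at most 1.02 CPM in any other library. Intron members of Sh3gl2 (2.17 ± 0.56), Tmcc1 (2.03 ± 0.56) and Lsamp (1.88 ± 0.53) and the intervals chr17:12339236-12339261 and chr2:181185784-181185809 were also called. Without SSRP1KO 2dpc replicate 5 these last 5 no longer passed, with adjusted p from 0.055 to 0.18.

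Among members that were lower in SSRP1KO cells, the one in the untranslated region of Tshz2, a zinc finger transcription factor gene, had the largest difference of those that met the naming rule. It had 3.69, 5.63 and 3.27 CPM in SSRP1KO no crush libraries, against 4.61, 9.31 and 8.86 in NT no crush libraries. At 1dpc it had 4.11, 3.18 and 2.74 CPM, against 6.62, 7.7 and 7.34, and at 2dpc 2.77, 2.82 and 1.58 against 6.16, 7.17 and 3.81. The groups did not overlap at 1dpc or 2dpc, and on the mean of 5 times it was lower by -0.77 ± 0.15 (adjusted p = 0.00075), with the gene at -0.53 ± 0.07. A pair near Stxbp5l (-0.56 ± 0.16 and -0.49 ± 0.12), the pair in Map1b and chrX:104511998-104512023, 4509 bases from Uprt (-0.43 ± 0.12), completed this set.

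Exon and intron members called on the mean of 5 times were set beside their host genes, with no test between the 2 kinds. Of 10 called exon members with a tested host, 8 had a host that was lower together with the member: Map1b and Arid1b, a chromatin remodelling gene, with 2 members each, and Rgs7bp, Tshz2, Gbp7 and F830016B08Rik. The other 2, in Exoc6b and Igbp1, were higher while the gene was lower. Of 23 higher intron members with a tested host, 5 had a host that passed as higher (Prkch, Kbtbd12, Grik1 and 2 members in Olfr288) and 8 had a host that passed as lower. These 8 lay in Usp11 with 2 members, Magi3, Lsamp, Gpr158, Anks1b, Mdga2 and Sh3gl2. In Usp11, a deubiquitinase gene, the 2 intron members were higher by 2.58 and 2.22 while the gene was lower by -0.79 ± 0.08 (adjusted p = 2.7e-07). The 1 lower intron member with a tested host, in Ppp2r3a (-2.52), had a host that passed as lower (-0.17 ± 0.06, adjusted p = 0.043). The median host change of the 23 was -0.17. Of all genes 9.73% passed as higher and 10.1% as lower on the mean of 5 times. The same libraries enter both fits, and reads over an exon member can also count for its gene. Member and gene values are on the 2 scalings described above.

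**Figure D5:**
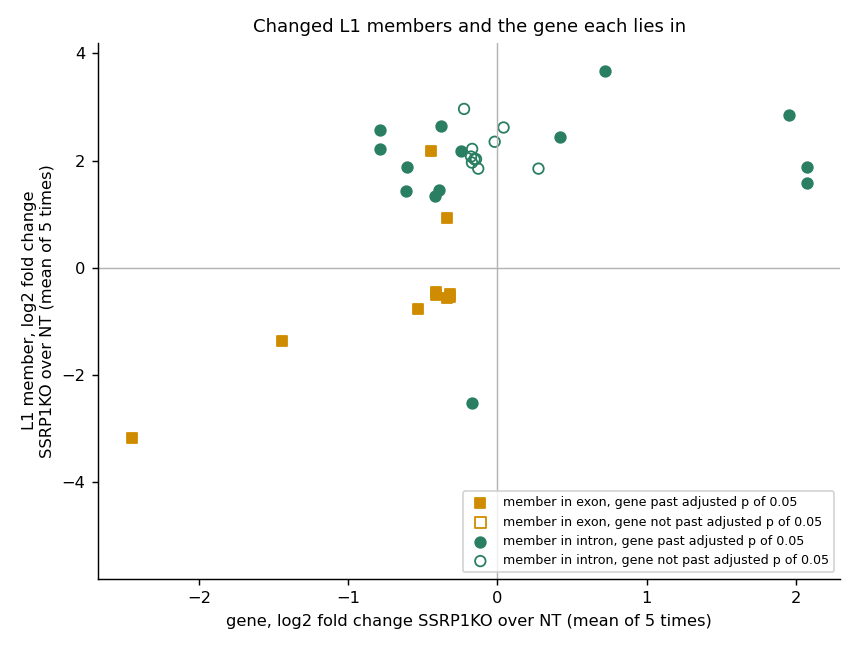
Log2 fold change of called L1 members (vertical axis) against that of their host genes (horizontal axis), SSRP1KO over NT on the mean of 5 times, for exon and intron members with a tested host. Exon members lie mostly in the lower left, while the intron members with a lower host include both in Usp11.

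Genes known to silence or restrict L1 were described next. Of 40 tested, 6 rose and 3 fell at NT 4dpc, where 13.6% of all genes rose and 13.4% fell. Zc3hav1, an antiviral protein that binds RNA, had 58.0, 57.9 and 64.1 CPM (TMM-scaled) at NT 4dpc, against 5.12, 7.79 and 16.6 without crush (2.60 ± 0.30, adjusted p = 7.1e-08). Dnmt1, the maintenance DNA methyltransferase, rose by 1.01 ± 0.18, while Cbx5, a heterochromatin protein, and Dnmt3a, a de novo DNA methyltransferase, were at -0.47 ± 0.13 and -0.57 ± 0.19, both passing. At SSRP1KO 4dpc 4 rose and none fell (6.53% and 6.77% of all genes), among them Zc3hav1 (2.17 ± 0.30) and Dnmt1 (0.52 ± 0.18).

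Between SSRP1KO and NT cells, 10 of the 40 were lower on the mean of 5 times and none higher, where 9.73% of all genes were higher and 10.1% lower. The median of the 40 was -0.13, against 0.03 over all genes. Atf7ip, a partner of the histone methyltransferase SETDB1, averaged 115, 113, 119, 122 and 97.3 CPM in SSRP1KO cells, against 128, 131, 148, 134 and 153 CPM in NT cells (-0.29 ± 0.06, adjusted p = 0.0016). Atrx, a chromatin remodeller that deposits histone H3.3, had 566, 342 and 660 CPM in SSRP1KO no crush libraries, against 756, 784 and 796 in NT no crush libraries, and was at -0.33 ± 0.07 on the mean of 5 times (adjusted p = 0.0018). Mphosph8, of the HUSH silencing complex, was at -0.38 ± 0.09. No test links these genes to the levels of L1 members.

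Sensors of nucleic acids moved with a few NT libraries. Of 8 tested, 3 were lower in SSRP1KO cells on the mean of 5 times and none higher: Eif2ak2 (-1.31 ± 0.29), Ddx58 (-1.30 ± 0.32) and Ifih1 (-1.23 ± 0.35). Eif2ak2, the double-stranded RNA-activated kinase PKR, had 5.83, 11.6 and 9.80 CPM in SSRP1KO 1dpc libraries, against 75.7, 92.1 and 33.1 in NT 1dpc libraries. Without crush it had 8.20, 6.32 and 18.6 CPM in SSRP1KO libraries, against 11.9, 9.0 and 105 in NT libraries, where 1 library was high. The L1 member in Gbp7, an interferon-induced GTPase, was high in the same NT libraries, with 0.909, 0.876 and 0.839 CPM in SSRP1KO 1dpc against 18.4, 13.6 and 6.12 in NT 1dpc libraries, and 11.1 CPM in NT no crush replicate 3. At NT 4dpc, 1 sensor list gene passed: Mavs, the mitochondrial adaptor of RNA sensors, had 1.64, 4.35 and 4.12 CPM, against 1.36, 0.284 and 0.332 without crush (2.39 ± 0.84, adjusted p = 0.034).

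RNAs retained in the nucleus gave 1 call each way at NT 4dpc among 8 tested, with Malat1 at 1.88 ± 0.45 and Rian at -1.47 ± 0.29. On the mean of 5 times Neat1, which builds paraspeckles, was higher in SSRP1KO cells by 1.04 ± 0.21, and the other 7 did not pass. Markers of other retinal cells that were higher in SSRP1KO cells on the mean of 5 times were 1 of 8 rod and cone, 3 of 6 bipolar, 2 of 6 amacrine, 2 of 7 glial, 1 of 8 microglial and 1 of 4 vascular genes tested, with no lower call among them. Ganglion cell markers had 5 of 10 lower. The 1 pigment epithelium marker tested did not pass. The part of these cells in the L1 differences was not tested.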

How the data were processed

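RNA from sorted retinal ganglion cells (SMART-Seq v4, paired reads of 69 bp) was measured in 30 libraries, 10 groups of 3. The authors deposited raw read counts per gene and raw read counts per repeat interval. The submitters' processing notes name bcl2fastq 2.17, STAR, HTSeq and the builds GRCm38 and mm10, without their roles. The members and gene lists were chosen with earlier results of these data known.

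Interval counts were fitted over the whole repeat table with edgeR 4.0.16 (R 4.3.3): quasi-likelihood test, gene-table totals as library sizes without the 27 symbols turned into dates (at most 0.275% of counts), filterByExpr with a minimum count of 10, 1 coefficient per group, 20 residual degrees of freedom, two-sided, and an adjusted p under 0.05. Genes were fitted with TMM factors. Named members passed, reached 0.5 CPM in the higher group and did not overlap between groups (mean of 5 times: 1 sign at all 5). Of these the largest changes were taken, 8 each way in NT 4dpc, SSRP1KO 4dpc and the mean, and 3 elsewhere. The 10 highest members were added. Names that fall outside the rule (the intervals in Pck2, Cln8, Tma16, Mir22hg, Ppp2r3a, Usp11 and Arid1b, and the other host genes listed by direction) were chosen after their values were seen. Places came from GENCODE M21 by bedtools 2.31.1. Ratios with 1 to 3 counts have exact 95% Clopper-Pearson intervals, and intervals and floors cover counting error only. The fits were tested on simulated counts. Alternatives were DESeq2 1.42.0, other library sizes, no filter, left-out libraries, a replicate block and a sex score. Replicates differed by more than sampling noise (chi-square per degree of freedom of at least 3.44).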

Additional observations from a re-analysis of the deposited data

Results flagged for a closer look

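At 3 named members the responses of the 2 guide groups lay in opposite directions with no overlap between the libraries. Each is given as the fitted log2 change with crush in SSRP1KO cells and then in NT cells, none of which passed. The difference between the 2 responses was tested over the 4 days together and not at a single day, with no call. The share of all tested members or intervals with this pattern was not counted. With 3 libraries in a group, a lack of overlap can arise by chance, so the 3 members are a description. At chrY:1047310-1047335, 1058 bases from Gm29650, the response at 1dpc was 6.12 in SSRP1KO cells and -2.91 in NT cells, and the adjusted p of the difference over the 4 days was 0.42 (edgeR). The first of these is fitted against a group with no count, so it depends on the prior count and is no bound. SSRP1KO libraries had 0.135, 0.398 and 0.547 CPM at 1dpc, against 0 in all 3 without crush, while NT libraries had 0, 0.156 and 0 CPM at 1dpc, against 0.565, 0.268 and 0.487 without crush. Y-linked genes summed to 162 to 191 CPM in SSRP1KO 1dpc libraries, against at most 0.128 without crush, and to 0.0457 to 46.3 CPM in NT 1dpc libraries, against 158 to 174 without crush. The part of sex in these responses was not tested.

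At chr2:40557390-40557415, 275 bases from Gm13456, the response at 1dpc was -0.49 in SSRP1KO cells and 0.31 in NT cells, with an adjusted p of 0.53 for the difference over the 4 days (edgeR). It had 49.1, 48.5 and 45.4 CPM in SSRP1KO 1dpc libraries, against 56.3, 94.2 and 50.9 without crush, and 40.4, 32.7 and 35.4 CPM in NT 1dpc libraries, against 27.9, 29.3 and 30.1 without crush. At the Kcnq1ot1 exon, chr7:143237914-143237939, the response at 2dpc was -1.52 in SSRP1KO cells and 0.88 in NT cells, with an adjusted p of 0.57 for the difference over the 4 days (edgeR). It had 0.722, 0.901 and 0.461 CPM in SSRP1KO 2dpc libraries, against 1.5, 1.03 and 3.59 without crush, and 0.991, 0.746 and 0.823 CPM in NT 2dpc libraries, against 0.518, 0.383 and 0.487 without crush.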

How the results depend on the processing

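Of 70 named results, 15 passed under every alternative run and 20 passed in every fit with 1 library left out, and no direction was reversed. DESeq2 kept all 70 and the sex score 43. Members called in NT cells were, at 1dpc, 3 with no filter, 1 without the 3 libraries that stood apart and 1 by DESeq2. At 2dpc they were 26 with no filter, 10 with the sex score and 41 by DESeq2. At 3dpc they were 54 without the 3 libraries and 46 by DESeq2, and at 4dpc 84 and 79. In SSRP1KO cells at 1dpc they were 42 with no filter, 0 with the sex score, 28 without the 3 libraries and 54 by DESeq2. At 2dpc they were 35 with no filter, 0 with the sex score and 28 by DESeq2, at 3dpc 18 with no filter, 4 with the sex score, 17 without the 3 libraries and 31 by DESeq2, and at 4dpc 16 with no filter and 17 by DESeq2. For SSRP1KO over NT without crush they were 3 with TMM scaling, 21 with no filter, 0 with the sex score, 32 without the 3 libraries and 39 by DESeq2. At 1dpc they were 5 with no filter and 1 without the 3 libraries, at 2dpc 46 with no filter, 1 without Rn45s and 14 by DESeq2, and at 3dpc 3 with no filter. At 4dpc they were 4 with TMM scaling, 9 with no filter, 0 without Rn45s, 2 with the sex score, 15 without the 3 libraries and 9 by DESeq2. On the mean of 5 times they were 146 with no filter and 41 with the sex score, and for the difference between responses 23 with no filter, 1 without the 3 libraries and 1 by DESeq2. The causes were not tested.

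The replicate numbers do not pair the libraries: deviations of same-numbered libraries correlated between -0.20 and 0.12. With a replicate block the calls were 12, 0 and 18 for SSRP1KO 1dpc, 2dpc and 3dpc, 16 for SSRP1KO over NT without crush, 3 at 4dpc and 27 on the mean of 5 times. Summed levels gave -0.20 for NT 4dpc with the 10 rows kept and 0.46 outside genes only, and for SSRP1KO 4dpc -0.76 with repeat-table totals and 0.34 with the 10 rows kept. With 1 library left out, calls ran from 0 to 2, 6 to 18, 13 to 20 and 23 to 45 in NT cells at 1, 2, 3 and 4dpc, and from 0 to 8, 2 to 17, 1 to 12 and 2 to 16 in SSRP1KO cells. Between guide groups they ran from 0 to 13 without crush, 0 to 16 at 2dpc, 0 to 2 at 4dpc and 45 to 88 on the mean of 5 times, were 0 at 1dpc and 3dpc, and 0 to 1 for the difference between responses. Summed levels ran from 0.09 to 0.20 on the mean, 0.26 to 0.37 at NT 4dpc and -0.26 to -0.13 at SSRP1KO 4dpc. Depth limits what can be seen, since only 1482 of 17685 members passed the filter.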
